A study of Mus musculus with 4 samples.

Results

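Genes of the phagocyte NADPH oxidase and of 4 antioxidant enzymes were followed through the cell types of mouse 4T1 tumours. The 9 genes, matched by symbol among 55450 genes, were Cybb, Cyba, Ncf1, Ncf4 and Rac2 of the oxidase and Sod2, Gpx1, Cat and Txnrd1 of the antioxidant enzymes. Droplet-based single-cell RNA sequencing (10x Genomics, 3′ libraries) had tagged each transcript molecule with a unique molecular identifier (UMI), and the authors deposited whole-number UMI counts of 33064 cell barcodes. Of the 4 samples, 2 were PBS, 1 was TIOs with near-infrared light, and 1 was left unassigned because its title names PBS and its protocol TIOs. 4T1 is a mouse mammary carcinoma line. In every group female BALB/c mice of 6 to 8 weeks carried 1000000 implanted 4T1 cells in the right flank, were injected intravenously on day 7 with PBS or with TIOs, the oncolytic nanosystem under study, and then received light of 980 nm and 1.0 W/cm2, with 5 min of it on each day from 8 to 10. On day 13 the tumours were taken and CD45+ cells were enriched by flow sorting. By these records the PBS samples were irradiated as well, and the number of mice behind a library was not stated.

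The barcodes carry 4 suffixes, here called libraries 1 to 4, and the sources used here do not link a library to a sample. No treatment was therefore compared, no p-value was computed, and each library stands as a sample of unknown treatment. After removal of barcodes with under 300 genes or over 15% mitochondrial UMIs, 32133 cells remained, with median depths of 2641.5 to 11698 UMIs per library. A total of 101 barcode sequences occurred in 2 libraries. Cells were named from fixed markers when at least 3 markers of a class were detected and no other class reached over 0.5 of its detected share. This named 18441 cells and left 42.6% unnamed, from 30.6% of library 3 to 55.5% of library 4. In each of the 15 classes a class marker was found in 89.0% of the cells or more. The same markers made the gate, so this value does not check the class names. Named cells included 8504 neutrophils, 1822 monocytes, 1368 macrophages, 864 T cells, 2267 fibroblasts and 3050 tumour or epithelial cells, so the CD45 sort had not removed non-immune cells. Of the monocytes 1506 were in library 4, of the macrophages 658 were in library 1, and of the tumour or epithelial cells 3029 were in library 1. S100a8, a neutrophil transcript, stood at 118 to 147 CPM in the non-immune cells of the 4 libraries, and the part of free RNA in low values was not tested. Doublets were not called.

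The phagocyte oxidase moves electrons from NADPH across a membrane onto oxygen and so makes superoxide. Its membrane core joins gp91phox (Cybb), which carries the electrons, to p22phox (Cyba), which stabilises it. On activation cytosolic subunits, among them the organiser p47phox (Ncf1) and p40phox (Ncf4), move to the core together with the small GTPase Rac2. Superoxide dismutases turn superoxide into hydrogen peroxide, mitochondrial Sod2 among them. Glutathione peroxidase 1 (Gpx1) and catalase (Cat) remove the peroxide, and thioredoxin reductase 1 (Txnrd1) keeps cytosolic thioredoxin reduced. Neutrophils and monocytes are known for the oxidative burst, and loss of Cybb or Ncf1 function causes chronic granulomatous disease.

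All 9 genes were found in the mouse annotation (GENCODE vM21, GRCm38). Cybb lies at chrX:9435252-9487771, Cyba at chr8:122424776-122432930, Ncf1 at chr5:134220053-134229625, Ncf4 at chr15:78244801-78262580, Rac2 at chr15:78559167-78572783, Sod2 at chr17:13006846-13040063, Gpx1 at chr9:108338903-108340343, Cat at chr2:103453849-103485160 and Txnrd1 at chr10:82833951-82897712. Ncf4, Sod2, Gpx1 and Txnrd1 are on the plus strand and the other members on the minus strand. Gtf2ird2 overlaps Ncf1 on the opposite strand with 1012 UMIs over all barcodes, and Eid3 overlaps Txnrd1 on the same strand with 1084. A few UMIs may thus have been assigned between Txnrd1 and Eid3, which share a strand. Whether reads of Gtf2ird2 touched the counts of Ncf1 was not tested.

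RefSeq (GRCm38.p6) promoter windows of 250 bases before to 50 bases after a start site were on hand for 7 members, with 3 starts for Txnrd1. They were searched on both strands for GAGGAA, a core bound by PU.1 and other ETS factors of myeloid cells, and for TGACNNNGC, the core of the antioxidant response element bound by Nrf2. GAGGAA was in 4 of the 9 windows and in 28.3% of all 32851 promoters, while TGACNNNGC was in 1 of the 9 and in 12.4% of all. The matches of GAGGAA were in Cybb, Sod2, Cat and at the first start of Txnrd1. A match is a description of letters and not a bound site. By mean level among classes seen in several libraries, Cybb and Cyba were highest in monocytes and Sod2 and Ncf1 in neutrophils. For Cyba and Sod2 the leading class changed between libraries. Cyba and Ncf1 held no GAGGAA in their windows, while Cat, lowest in neutrophils by mean level, held it. Any tie between the motif and these levels was not tested. Shown are the GAGGAA stretches of Cybb and Sod2 and the sole antioxidant response core, at the middle start of Txnrd1. The GAGGAA stretches of Cat and Txnrd1 are not shown. Capitals mark the match, which is in antisense (TTCCTC) for Cybb, 9 bases past the start, and for Txnrd1, and in sense for Sod2.
Cybb, chrX:9469300-9469325, minus strand: ctgttttcatTTCCTCatcagaagaa
Sod2, chr17:13007606-13007671, plus strand: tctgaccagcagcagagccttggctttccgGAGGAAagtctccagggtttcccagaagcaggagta
Txnrd1, chr10:82859084-82859152, plus strand: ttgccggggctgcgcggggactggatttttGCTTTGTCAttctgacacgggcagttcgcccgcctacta

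Levels are given as CPM, the UMIs of a gene scaled to a total of 1000000 UMIs for a class in a library, for classes with at least 20 cells there. Differences are log2 folds of CPM + 10, taken within each library and averaged. A gene was called when the mean difference was at least 2-fold and had 1 sign in every library, which is a rule of size and not a test. Sums of phagocytes are means over neutrophils, monocytes and macrophages. Intervals on single values are exact 95% intervals that cover counting error only.

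Oxidase transcripts were concentrated in phagocytes relative to non-immune cells, and Rac2 was higher still in T cells. Against the non-immune classes, 6 of the 9 genes were called higher in phagocytes, namely all 5 oxidase members and Gpx1, where 6.82% of the 16519 genes tested were called higher. None of the 9 was called lower, against 10.4% of all genes. The median difference of the 5 oxidase members was 4.37 on the log2 scale and that of the 4 antioxidant members 0.07, beside -0.16 over all genes. Cybb led with a mean fold of 24.8, and its log2 folds in libraries 1 to 4 were 4.27, 5.19, 5.12 and 3.96. Ncf4 was 22.3-fold higher, Rac2 20.7-fold, Ncf1 12.2-fold and Cyba 4.93-fold. Gpx1 was 2.27-fold higher (log2 0.97 to 1.56), and was not called with libraries pooled (log2 0.90) or with a gate of 0.25 (0.80). Monocytes and macrophages carried its difference, with means of 1521 and 1548 CPM. Neutrophils, at 400 to 654 CPM, lay below tumour or epithelial cells (664 and 705 CPM) and endothelial cells (675 and 717 CPM). Their mean of 522 CPM was above that of fibroblasts (375 CPM). Sod2, Cat and Txnrd1 were not called, and the log2 difference of Sod2 ran from -1.42 in library 4 to 1.46 in library 2. The non-immune side was fibroblasts alone in library 4, with Sod2 at 538 CPM, and tumour or epithelial cells, fibroblasts and endothelial cells in library 2, so these values compare unlike groups.

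**Figure D1:**
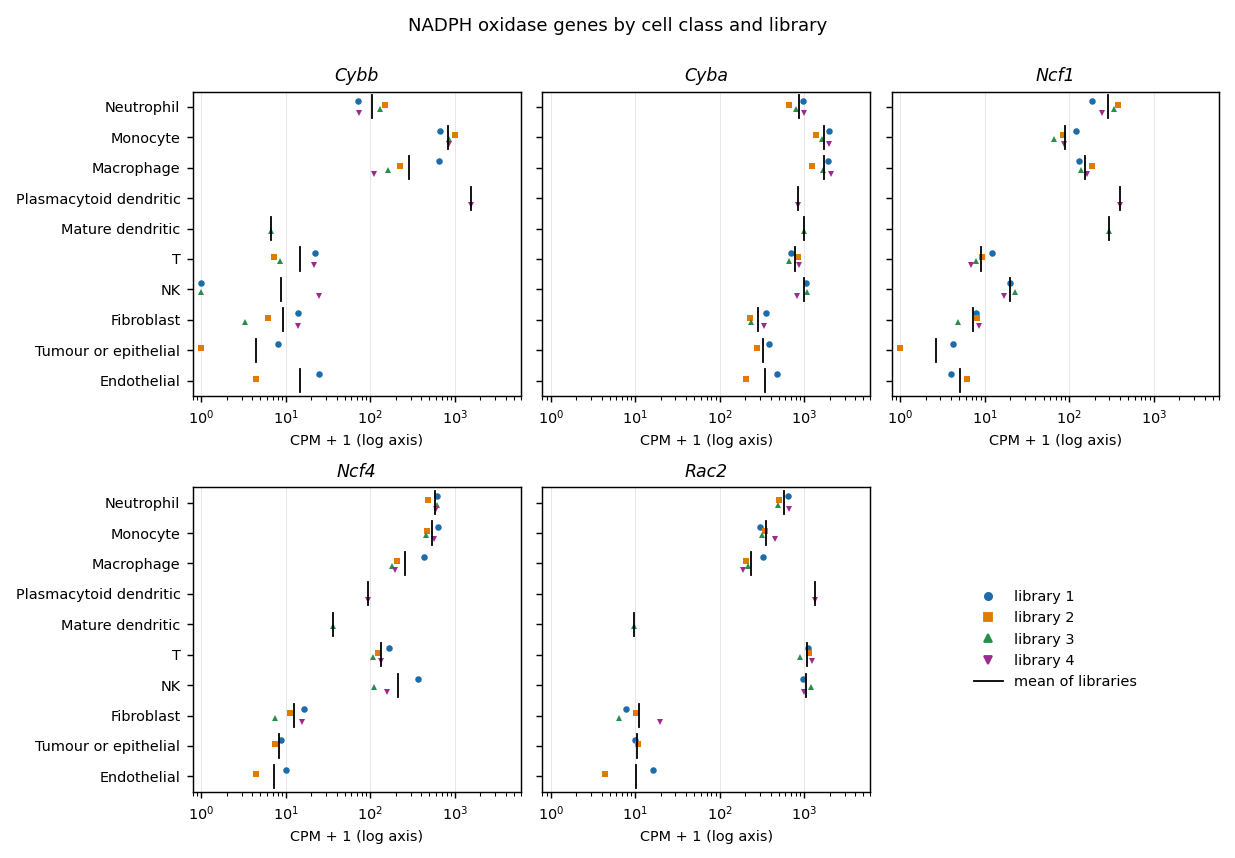
Levels of the 5 oxidase genes, with cell classes down the side and CPM + 1 on a log axis. Each symbol is the summed cells of 1 class in 1 library with at least 20 cells, and the bar is the mean of the libraries shown. Cybb is highest in monocytes and in the plasmacytoid dendritic cells of library 4, Ncf1 and Ncf4 reach neutrophils, and Rac2 is highest in T and NK cells among the classes seen in several libraries.

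Cybb, the electron-carrying subunit, was at 671, 1002, 843 and 851 CPM in the monocytes of libraries 1 to 4. Macrophages held 650.5, 226, 162 and 110 CPM, and neutrophils 71.2, 147, 130 and 73.3 CPM. Monocytes were thus above macrophages in each library and their ranges did not overlap, although in library 1 the gap was 671 against 650.5 CPM. The ranges of macrophages and neutrophils overlapped. T cells stood at 6.22 to 21.1 CPM, fibroblasts at 2.30 to 12.9 CPM and tumour or epithelial cells at 0 and 7.02 CPM. NK cells had 0 UMIs in libraries 1 and 3, which allows up to 28.5 and 32.7 CPM at a limit of 3 counts. With each cell thinned to 1000 UMIs and libraries pooled, Cybb was found in 51.0% of monocytes (48.6 to 53.3%) and 26.4% of macrophages. It was in 7.26% of neutrophils (6.70 to 7.86%), against 1.18% of T cells and 0.800% of tumour or epithelial cells. Without thinning the shares, in the same order, were 90.7%, 55.7%, 11.0%, 4.86% and 12.0%. These pooled shares weigh the libraries unequally. Library 4 gave 1487 of the 1794 thinned monocytes, and library 1, with the highest Cybb in macrophages, gave 582 of the 1211 thinned macrophages. The median depth of monocytes was 7607.5 UMIs and that of neutrophils 1792.

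Cyba, the partner of Cybb in the membrane, was spread more widely. Monocytes had 1962, 1373, 1636 and 1970 CPM and macrophages 1912, 1224, 1656 and 2070 CPM, and these ranges overlapped. Neutrophils were lower at 974, 667, 795 and 1001 CPM, close to T cells at 691, 850, 666 and 874 CPM. Fibroblasts (226 to 352 CPM) and tumour or epithelial cells (276 and 380 CPM) were lower again but not near 0. Cyba was not called between phagocytes and T cells (log2 0.88, from 0.35 to 1.21).

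The cytosolic organiser Ncf1 had its highest mean level in neutrophils among the classes seen in several libraries. The plasmacytoid dendritic cells of library 4 held more, at 397 CPM. Mature dendritic cells of library 3 held 299 CPM, below the neutrophils of that library. Neutrophils held 186, 377, 342 and 241 CPM in libraries 1 to 4, macrophages 131, 184, 137 and 161 CPM, and monocytes 118, 83.0, 66.0 and 86.9 CPM. In each library neutrophils were above macrophages and macrophages above monocytes, but the range of neutrophils began at 186 CPM just above the 184 CPM that macrophages reached. The order of neutrophils and monocytes was thus the reverse of that for Cybb. T cells had 5.82 to 11.3 CPM and tumour or epithelial cells 0 and 3.28 CPM.

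Ncf4, which binds phosphoinositides of the phagosome membrane, was alike in neutrophils (611, 482, 616 and 602 CPM) and monocytes (634, 470, 451 and 570 CPM). Macrophages had 436, 208, 179 and 197 CPM, of which library 1 was again the highest. NK cells held 371, 109 and 158 CPM in libraries 1, 3 and 4, a range that overlapped that of macrophages. T cells were at 106 to 165 CPM and fibroblasts at 6.45 to 15.5 CPM, and neither range reached that of the phagocytes.

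Rac2, the haematopoietic Rac GTPase, was highest in lymphocytes among the classes seen in several libraries, and the plasmacytoid dendritic cells of library 4 held more, at 1356 CPM. T cells held 1107, 1128, 896 and 1220 CPM, and NK cells 961, 1208 and 1004 CPM in libraries 1, 3 and 4, with overlapping ranges. Neutrophils followed at 648, 504.5, 483 and 664 CPM, then monocytes at 295 to 446 CPM and macrophages at 186 to 328 CPM, and the last 2 overlapped. Fibroblasts stayed at 5.40 to 18.8 CPM. Rac1, its relative in most cell types, varied less, with means from 289 CPM in tumour or epithelial cells and 320 CPM in fibroblasts to 601 CPM in monocytes.

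Against T cells, 5 members were called higher in phagocytes (8.69% of 12671 genes) and 1 lower (9.68%). Those higher were Cybb (18.4-fold), Ncf1 (10.3-fold), Gpx1 (3.66-fold), Sod2 (3.48-fold) and Ncf4 (3.29-fold). Rac2 was the member called lower, with log2 differences of -1.37, -1.67, -1.38 and -1.48 in libraries 1 to 4. Txnrd1 (log2 0.76) and Cat (-0.19) were not called.

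**Figure D2:**
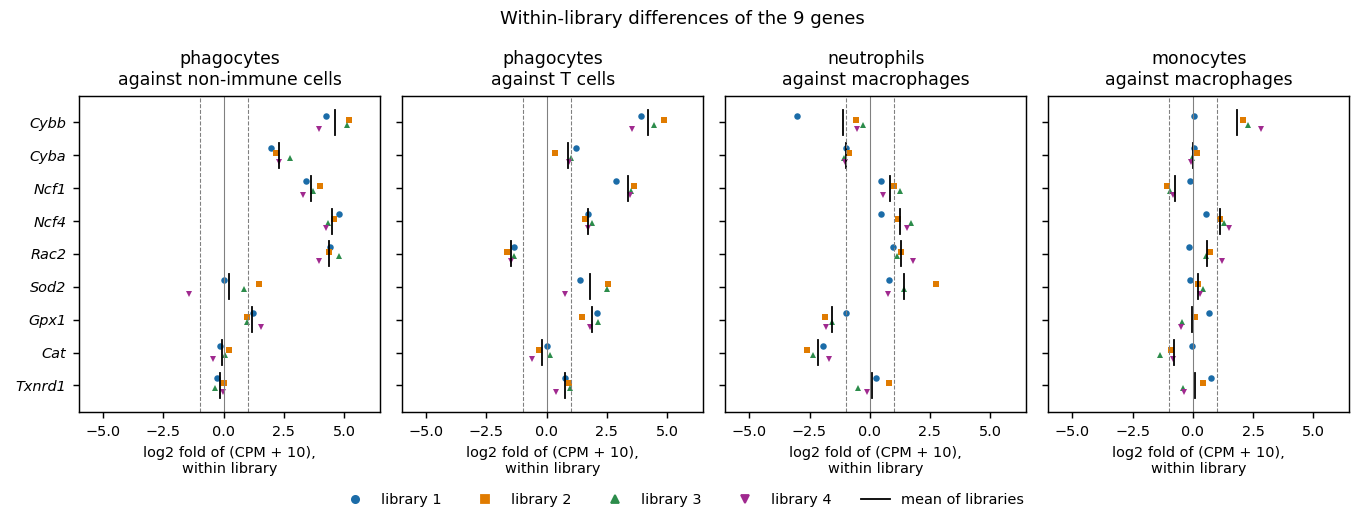
Log2 folds of CPM + 10 for the 9 genes in 4 comparisons of cell classes, with 1 symbol per library, a bar at the mean of the libraries, and dashed lines at the 2-fold limit. Oxidase genes lie to the right in phagocytes against non-immune cells, Rac2 lies left of 0 against T cells in all 4 libraries, and the Cybb point of library 1 at -3.02 stands apart from the other 3 in neutrophils against macrophages.

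Neutrophils and macrophages divided the 9 genes evenly. Ncf4 (2.36-fold), Rac2 (2.44-fold) and Sod2 (2.69-fold) were called higher in neutrophils, against 7.11% of 11093 genes, and Cybb, Gpx1 and Cat were called lower, against 20.8%. With libraries pooled before the fold, Ncf4 (log2 0.72) and Rac2 (0.94) were not called, and Ncf4 was not called with gates of 0.25 (0.64) and 0.9 (0.84) either. The median over all genes was itself -0.39 on the log2 scale. Cybb was lower by log2 values of -3.02, -0.59, -0.29 and -0.52, so library 1 decided its size, and without library 1 the mean was -0.47 and no longer called. Sod2 was higher by 0.80, 2.75, 1.43 and 0.74, and without library 2 its mean was 0.99, just inside the limit. Gpx1 (-0.97 to -1.85) and Cat (-1.69 to -2.62) were lower in each library by amounts that no single library set. Cyba fell just short of a call at -0.98 (-1.05 to -0.87), and Txnrd1 had no common sign.

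Monocytes and macrophages differed in 2 members. Cybb was called higher in monocytes with log2 folds of 0.05, 2.10, 2.31 and 2.85, and Ncf4 with 0.53, 1.14, 1.29 and 1.48, against 2.66% of 10716 genes. In both genes the smallest difference was in library 1, which held 29 monocytes and the macrophages richest in Cybb. Without library 4, Ncf4 stood at 0.99 and was not called. None of the 9 was called lower, against 3.2% of all genes, although Ncf1 was lower in all 4 libraries (-0.14 to -1.06).

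Retnlg marks a subset of neutrophils, and a split of the neutrophils by a UMI of Retnlg moved none of the 9 genes to a call in either direction. Calls were rare in this comparison, at 0.0439% of 9109 genes higher and 0.011% lower. The mean log2 differences of the members lay between -0.30 (Txnrd1) and 0.18 (Rac2). Rac2 and Txnrd1 had their largest values in library 1, at 1.03 and -0.98.

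Macrophages were also split by a UMI of Cd163, a scavenger receptor. Cybb pooled over libraries was 223 CPM in Cd163+ and 565 CPM in Cd163- macrophages. Within libraries 1 to 4 the pairs were 658 against 650, 214 against 250, 147 against 177 and 117 against 93.9 CPM, so a gap of the pooled size was not present within any library. Ncf1 was higher in Cd163+ macrophages in all 4 libraries, at 263 against 125, 210 against 127, 158 against 114 and 170 against 141 CPM. Gpx1 was lower there in all 4, at 1226 against 1292, 1272 against 1899, 1223 against 1870 and 1728 against 2242 CPM. These splits were described after their values were seen and were not counted among the calls. Library 1 held 23 Cd163+ macrophages, and the share of all genes with 1 sign in this split was not computed.

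Of the dendritic classes, the plasmacytoid and the mature stood at opposite ends for Cybb and Rac2 but not for the other oxidase genes. Each was seen in few cells and mostly 1 library. Plasmacytoid dendritic cells, the interferon-producing type, held 448 UMIs of Cybb in 51 cells, or 1485 CPM (1351 to 1629), and 1555 CPM in library 4. In them Rac2 was at 1356 CPM, Cyba at 838 CPM, Ncf1 at 397 CPM and Ncf4 at 93.7 CPM in library 4. Mature dendritic cells, which carry Ccr7 and Fscn1, had 7 UMIs of Cybb in 128 cells, 6.47 CPM (2.60 to 13.3), a level inside the range of fibroblasts. Rac2 was also inside the range of fibroblasts in them, at 8.57 CPM in library 3, while Cyba was at 1006 CPM, Ncf1 at 299 CPM and Ncf4 at 35.2 CPM. Type 1 dendritic cells, the cross-presenting kind, had 4 UMIs of Cybb in 30 cells, 10.4 CPM (2.83 to 26.6). With a wider gate that allowed other classes up to 0.75, plasmacytoid dendritic cells held 1470 and 1740 CPM of Cybb in libraries 2 and 4, and mature dendritic cells 6.08 CPM in library 3. Type 2 dendritic cells lay in between under this gate, in libraries 2 and 3. They held Cybb at 230 and 259 CPM and Rac2 at 353 and 469 CPM. Type 1 dendritic cells held Rac2 at 135 and 166 CPM in libraries 1 and 2, also in between.

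Since the oxidase works as a complex, its genes were counted together in single cells thinned to 1000 UMIs. With libraries pooled, at least 3 of the 5 genes were found in 36.7% of monocytes (34.5 to 39.0%), 19.8% of neutrophils (18.9 to 20.7%) and 16.8% of macrophages (14.8 to 19.1%). In T cells the share was 4.13% (2.89 to 5.70%) and in fibroblasts 0.460%. Among 3002 tumour or epithelial cells there was none, which allows up to 0.123% by the exact interval. Macrophages differed by library, with 26.8% in library 1 and 8.25%, 4.82% and 7.46% in libraries 2 to 4. Plasmacytoid dendritic cells reached 37.3% (24.1 to 51.9%) of 51 cells and mature dendritic cells 0.800% of 125. Cybb and Cyba, the membrane pair, were found together in 42.4% of monocytes, 19.2% of macrophages and 3.54% of neutrophils, pooled over libraries. For macrophages the pair was in 31.1% of cells in library 1 and in 7.52%, 7.23% and 10.4% in libraries 2 to 4. A thinned cell holds few molecules of each gene, so a missing gene was not detectable at this depth and not shown to be absent.

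**Figure D3:**
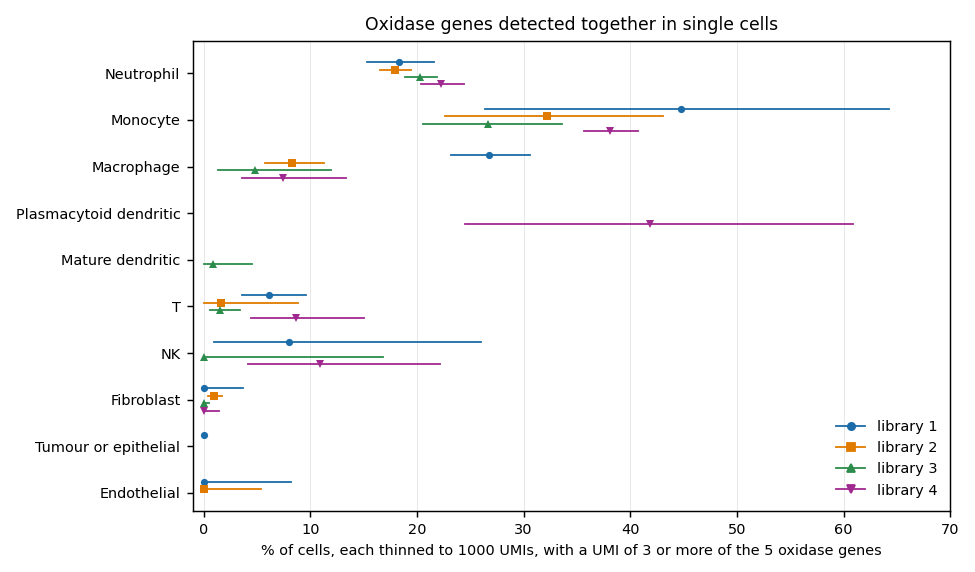
Share of cells with a UMI of at least 3 of the 5 oxidase genes after thinning each cell to 1000 UMIs, by class and library, with lines for exact 95% binomial intervals of counting error. Monocytes lie at 26.7 to 44.8%, neutrophils at 17.9 to 22.3%, and the macrophages of library 1 at 26.8% lie apart from those of the other libraries.

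In neutrophils Sod2 varied most between libraries of the 4 antioxidant genes. They held 304, 1367, 862 and 253 CPM, a 5.40-fold range, while fibroblasts stayed within 417, 465, 327 and 538 CPM. Neutrophils were above fibroblasts in libraries 2 and 3 and below them in libraries 1 and 4, so the order of the 2 highest classes was not fixed. Monocytes (155 to 425 CPM) and macrophages (148 to 313 CPM) followed with overlapping ranges, both highest in library 3. T cells were at 73.7 to 111 CPM. The thinned share of neutrophils with Sod2, pooled over libraries, was 39.5% (38.5 to 40.6%). Libraries 2 and 3, where Sod2 was highest, gave 2724 and 2866 of the 7878 thinned neutrophils. The pooled share thus weighs the libraries unequally and its interval does not cover their spread.

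Gpx1, the selenium enzyme that reduces peroxide with glutathione, was highest in macrophages and monocytes among the classes seen in several libraries. Macrophages had 1289, 1469, 1539 and 1895 CPM and monocytes 2043, 1580, 1131 and 1332 CPM, and the ranges overlapped. Endothelial cells (717 and 675 CPM) and tumour or epithelial cells (664 and 705 CPM) came next in libraries 1 and 2. Neutrophils held 654, 400.0, 506 and 529 CPM, fibroblasts 332 to 418 CPM and T cells 232 to 408 CPM.

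Catalase set the neutrophils apart from every other large class. They held 2.30, 3.45, 3.98 and 6.89 CPM of Cat, from 70 UMIs in 8504 cells, and the range of each of the other main classes lay above theirs. Macrophages had 37.3, 72.7, 61.4 and 44.6 CPM, T cells 24.7 to 47.7 CPM, fibroblasts 20.7 to 36.1 CPM and monocytes 18.0 to 36.9 CPM. Thinned to 1000 UMIs and pooled over libraries, 0.394% of neutrophils (0.268 to 0.558%) held Cat against 2.28% of monocytes and 4.21% of macrophages. NK cells were at 0, 10.9 and 23.7 CPM on 7 UMIs, too few to be placed.

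Mean levels of Txnrd1 differed little between most of the main classes. They were 129 CPM in endothelial cells, 107 CPM in fibroblasts, 106 CPM in tumour or epithelial cells and in neutrophils, 100.2 CPM in monocytes and 96.4 CPM in macrophages, with ranges that overlapped. Endothelial and tumour or epithelial cells were seen in libraries 1 and 2 alone, so these means cover unlike sets of libraries. In library 1 endothelial cells held 105 CPM, above macrophages (43.9 CPM), neutrophils (54.4 CPM) and fibroblasts (57.7 CPM). In library 2 neutrophils (183 CPM) were above endothelial cells (152 CPM). T cells were at 31.6 to 68.4 CPM and NK cells at 38.1 to 63.2 CPM, both below the ranges of monocytes and endothelial cells. Neutrophils ranged from 54.4 CPM in library 1 to 183 CPM in library 2, and library 1 was the lowest of the 4 also in macrophages, fibroblasts and T cells. Mature dendritic cells of library 3 held 215 CPM against 33.1 CPM in the plasmacytoid dendritic cells of library 4, in the opposite order to Cybb.

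**Figure D4:**
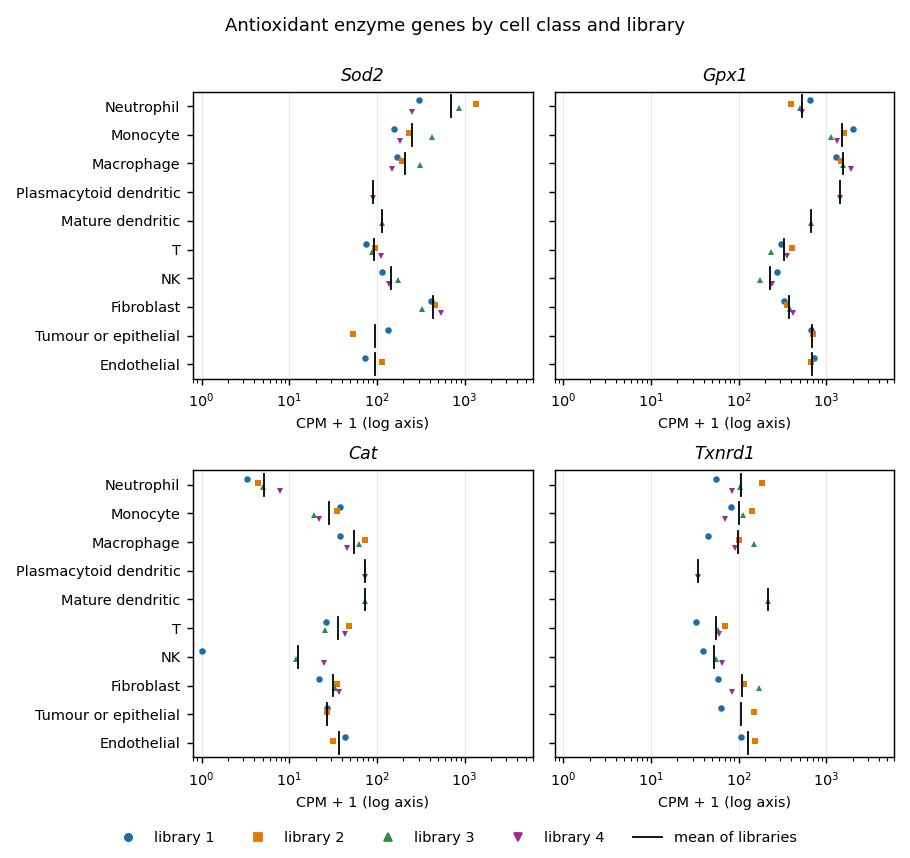
Levels of Sod2, Gpx1, Cat and Txnrd1 by cell class, with CPM + 1 on a log axis, 1 symbol per library with at least 20 cells of the class and a bar at the mean. Sod2 in neutrophils spans 253 to 1367 CPM, Cat in neutrophils lies at 2.30 to 6.89 CPM below the other main classes, and Txnrd1 in neutrophils, monocytes, macrophages, fibroblasts, tumour or epithelial cells and endothelial cells overlaps.

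Tumour or epithelial cells and fibroblasts could be compared in libraries 1 and 2 alone, of which library 2 held 20 tumour or epithelial cells. Sod2 was called lower in tumour or epithelial cells with log2 differences of -1.57 and -2.93, against 8.66% of 14449 genes lower. No member was called higher (4.83% of all genes), and Gpx1 came nearest at 0.98 and 0.95. The 5 oxidase genes lay between -0.56 and 0.19 in this comparison.

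Other genes of these pathways were taken from 6 lists of 47 genes. In phagocytes against non-immune cells 8 of the 44 tested were called higher and 6 lower, where 6.82% of all genes were called higher and 10.4% lower. Slc7a11, the cystine carrier that feeds glutathione synthesis, was 19.6-fold higher and Hmox1, haem oxygenase 1, 6.84-fold higher. Slc7a11 was far lower in macrophages than in neutrophils, as given below, so its mean fold does not describe each phagocyte class. Those lower were the secreted Sod3 and Gpx3, the endoplasmic reticulum enzymes Gpx7, Gpx8 and Prdx4, and Prdx2.

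Against macrophages, neutrophils were higher in 7 of 37 related genes and lower in 9, where 7.11% of all genes were called higher and 20.8% lower. Slc7a11 was the largest of those higher, at 992 CPM on average (312 to 1473) against 19.0 CPM in macrophages, a 32.7-fold difference on CPM + 10. The peroxiredoxin Prdx5 was 2.87-fold higher. The 9 lower genes included Sod1, Prdx1, Prdx2, Prdx3 and Prdx4, with Prdx1 at 143 CPM in neutrophils and 882 CPM in macrophages. Peroxiredoxins, like Cat and Gpx1, remove peroxide.

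T cells had 12 of 38 related genes lower than phagocytes and none higher by the same rule, where 8.69% and 9.68% of all genes were. Between monocytes and macrophages Mgst1, Slc7a11 and Glrx were called higher and Hmox1 lower, of 37 (2.66% and 3.2% of all genes). In tumour or epithelial cells against fibroblasts 3 of 42 were higher (Gsr, Prdx2 and Acsl4) and 8 lower, beside 4.83% and 8.66% of all genes. Among those lower was Nox4, the constitutively active oxidase. It averaged 15.9 CPM in the fibroblasts of 4 libraries (9.21 to 29.0) and 0.399 CPM in the tumour or epithelial cells of libraries 1 and 2, so these means cover unlike sets of libraries. Retnlg-positive neutrophils were higher in 1 of 37, the microsomal transferase Mgst1 (2.26-fold).

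Over 30 points, each a class in a library, the genes most like each member among 8766 genes were ranked by Pearson's r of log2 levels of CPM + 10. The points share libraries and classes, and r is given as a description. For Cybb they were Zeb2os (r = 0.97), Mpeg1 and Clec12a, for Cyba Ctss (0.91), Ucp2 and Laptm5, and for Ncf1 Gpr137b-ps (0.93), Syk and Spi1. Ncf4 was most like AB124611 (0.93), Vav1 and Myo1f, and Rac2 most like Ptprc (0.97), the gene of CD45, with Fyb and Hcst. Sod2 (Irak3, 0.83), Gpx1 (P2ry6, 0.88), Cat (Nsmce1, 0.85) and Txnrd1 (Pdlim5, 0.76) had less close neighbours. Among the members themselves the highest r were 0.84 for Cyba with Ncf4 and 0.81 for Ncf4 with Rac2, and the lowest was -0.59 for Rac2 with Txnrd1.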

How the data were processed

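UMI counts per gene and barcode, whole numbers not scaled per cell, were deposited by the authors as a single matrix (355765099 UMIs, 69255999 to 108646352 per library). Cell Ranger is named as version 3.0.2 in the sample records, 2.1.1 with build mm10 in the submitters' processing notes and 6.1.2 in the matrix header. The members and lists were chosen with earlier results of these data known. All 9 members and the genes of 6 pathway lists were named by rule, with the 3 genes most like each member. Cells with at least 300 genes and at most 15% mitochondrial UMIs were kept, as in the study's methods (32133 of 33064 barcodes, where the study states 15603 cells). Classes were gated on 133 markers. Counts were summed per class and library, scaled to CPM, and compared within libraries as log2(CPM + 10) for genes with at least 50 UMIs. For shares of cells, each cell was thinned to 1000 UMIs, which left out 1890 shallower cells. Intervals are exact 95% Poisson or Clopper-Pearson intervals, and UMIs limit them to counting error. Because the matrix is 1 pooled sample, no test was run. The steps were tested on simulated data in Python 3.11.15 (numpy 2.4.6, scipy 1.17.1, pandas 2.3.3). Simulated cells for the gate were drawn from profiles of classes that the same gate had named, so they do not check the class names. Simulated counts for the folds varied by counting error alone. Planned and added alternatives changed the cell filter, gate, pseudocount, scaling, thinning, depth and libraries used. All 55450 identifiers matched GENCODE vM21. Protein sequences were not used here.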

Additional observations from a re-analysis of the deposited data

Results flagged for a closer look

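Cells that no gate named were outside the comparisons but held 53.2 to 64.2% of the UMIs of each member. In them Cybb stood at 139 CPM, Cyba at 799.7 CPM, Ncf1 at 49.3 CPM, Ncf4 at 128 CPM, Rac2 at 131 CPM, Sod2 at 304 CPM, Gpx1 at 883 CPM, Cat at 30.5 CPM and Txnrd1 at 106.5 CPM. Barcodes that the cell filter removed also held all 9 genes, with Cybb at 70.4 CPM, Cyba at 375 CPM, Ncf1 at 59.6 CPM, Ncf4 at 79.2 CPM, Rac2 at 63.5 CPM, Sod2 at 145 CPM, Gpx1 at 434 CPM, Cat at 13.7 CPM and Txnrd1 at 70.4 CPM. Both sets were set apart because they carry signal in data that the comparisons did not use. Which cell types these molecules came from was not tested.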

How the results depend on the processing

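Over 20 alternatives, the 21 member differences that were called kept their sign in 417 of 417 recalculations and were still called in 400. Some of these recalculations could not have reversed a sign. A call needs 1 sign in every library, so leaving out a library or changing the pseudocount keeps it. A minimum of 200 UMIs per gene left every fold and its call unchanged. The counts of 417 and 400 include these settings and so overstate the stability. Of the calls lost, Ncf4 was lost in 3 settings for neutrophils against macrophages (log2 0.64 to 0.84) and Rac2 there in 1 (0.94, libraries pooled), and Cybb there at a pseudocount of 50 CPM (-0.91), after rescaling without markers, mitochondrial and top genes (-0.88) and without library 1. No result reversed. The counts of members called stayed within 1.5 times of the value given, with these exceptions, whose causes were not tested. In tumour or epithelial cells against fibroblasts, 3 members were lower at a pseudocount of 1 CPM and 4 with a mean over cells, and 1 (Gpx1) was higher with the deepest 5% of cells left out. In neutrophils against macrophages, 1 member (Gpx1) was lower at a pseudocount of 50 CPM. In monocytes against macrophages, 1 member (Cybb) was higher at 50 CPM and with wider gates of 0.75 and 0.9, and 0 with libraries pooled before the fold. Leaving out 1 library gave 1 to 2 members higher there (Cybb alone without library 4) and 0 to 1 lower (Cat without library 1). Thinning made 1 member (Cat) lower in phagocytes against non-immune cells. The class with the highest level was the same for 7 to 8 of the 9 members with 1 library left out, and for 3 of 9 with either wider gate, where dendritic classes came to lead. The wider gates and the pooled libraries were added after seeing the data. A gate of 0.25 left too few cells for some comparisons. No paired analysis was possible because the samples' replicate numbers are not linked to libraries, while every class difference was taken within a library. Depth limits Cat in neutrophils (70 UMIs) and every value of the rare dendritic classes.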
